A study of Homo sapiens with 8 samples.

Results

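The G1 cyclins, the cyclin-dependent kinases (CDKs) they activate and the inhibitors that hold those kinases back were followed as 10 protein-coding genes, chosen by name: CCND1, CCND2, CCND3, CCNE1, CCNE2, CDK2, CDK4, CDK6, CDKN1B and CDKN2A. They are 10 of 58735 genes in the deposited tables. The RNA was that of PANC-1 cells, a long-established line from a human ductal adenocarcinoma of the pancreas. The groups were 4 libraries given a scrambled siRNA (siSCR, genotype labelled WT) and 4 given a BARD1 siRNA (siBARD1, genotype labelled BARD1 knockdown). Cells were harvested 48 h after transfection, and replicates carry the numbers 1, 3, 4 and 5 in both groups. All 8 libraries come from 1 cell line, and the labels do not say how many BARD1 siRNA sequences were used or whether replicates were separate cultures. The p-values therefore reflect only how far these libraries spread, and that spread may be technical.

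D-type cyclins bind CDK4 and CDK6 when growth signals are present, and the resulting kinases phosphorylate the retinoblastoma protein RB1 and so release E2F transcription factors. E2F factors raise cyclin E, which binds CDK2 and carries the cell into S phase. The INK4 inhibitor p16, encoded by CDKN2A, binds CDK4 and CDK6, and the CIP/KIP inhibitor p27, encoded by CDKN1B, binds cyclin-CDK2 complexes. PANC-1 is known to carry a homozygous deletion of CDKN2A, a common lesion of pancreatic cancer.

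After BARD1 siRNA the CDK4 and CDK6 transcripts moved in opposite directions. CDK6 rose 1.92-fold and CDK4 fell to 58.0% of its control level. On the lengths used CDK6 became the more abundant of this pair, which may depend on how reads over an overlapping gene were counted. CDKN1B rose 1.62-fold, while CCNE1 fell to 68.6% and CDK2 to 79.1%. CCND1, the dominant D cyclin, fell to 86.6% with libraries that overlapped between groups, and CDKN2A had no counts in any library. CCND2, barely transcribed, rose 2.65-fold, but it entered the test only through its siBARD1 libraries.

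2 sequences are shown for CDK4 and CCND2 because these are the only members with the 7-base word CTACCAG in an annotated coding transcript, and an earlier search of these same data found that word among the transcripts with the steepest falls. The word, in capitals, was present in 6 of 10 coding transcripts of CDK4 and in 1 of 2 of CCND2; 1 transcript of each is shown. Sequences are from GENCODE release 29, GRCh38, read 5′ to 3′ as in the RNA; both genes lie on chromosome 12, CDK4 on the minus and CCND2 on the plus strand.
CDK4, coding region: agaatctacagCTACCAGatggcacttaca
CCND2, 3′ UTR: ttctggtgttcCTACCAGgactcaagagac
No coding transcript of the other 8 genes held the word, CDK6 included, whose longest annotated 3′ UTR runs to 10222 bases. Among 12722 tested protein-coding genes, 3435 held it in at least 1 coding transcript. Searched in 1 transcript a gene, that with the longest 3′ UTR, genes with the word had a median log2 fold change of -0.08 and genes without it 0.02. In that search CDK4 counted among the genes without the word, which its searched transcript lacks. Because the word was picked from these same data, the 2 medians are a description and no support for a role of the word.

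Total counts ranged from 17816547 to 28590710 per library. BARD1 itself, the siRNA target, had 381 to 424 counts in siSCR and 55 to 97 in siBARD1 libraries, and fell to 15.4% of control (log2 fold change -2.69, SE 0.12, adjusted p = 7.41e-11 in edgeR). The ductal epithelial markers KRT8, KRT18 and KRT19 were abundant and fell (log2 fold changes -0.81, -0.87 and -0.74). KRT7, EPCAM and CDH1 stood below 20 CPM (counts per 1000000 of the library's TMM-scaled total) in both group means. Their log2 fold changes of -0.52, 0.14 and 0.06 did not pass (adjusted p = 0.0838, 0.281 and 0.871 in edgeR). The summed level of the 6 epithelial markers was 1154 to 1593 FPKM (counts scaled by gene length and library total) in siSCR and 675.9 to 951.6 FPKM in siBARD1 libraries, without overlap; its part in the results on cyclins and CDKs was not tested. None of the 4 acinar, 4 endocrine, 4 leukocyte or 3 endothelial markers passed the filter on low counts. Of the 5 fibroblast markers COL1A1 passed, while DCN and LUM had 0 counts. Because RNA was pooled from whole cultures, fewer cells in a given state and less RNA per cell cannot be told apart.

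Of the 10 genes, 9 entered the test. CCND2 did so only through its siBARD1 libraries, since it reached the filter's minimum in 2 siSCR libraries and all 4 siBARD1 libraries. Over all 15287 genes tested, edgeR's quasi-likelihood test called 38.9% at a Benjamini-Hochberg adjusted p under 0.05, 20.0% lower and 18.9% higher in siBARD1. Among the 8 genes well above the filter in both groups, 4 were called lower (CDK4, CCNE1, CDK2, CCND1), 2 higher (CDK6, CDKN1B) and 2 were not called (CCND3, CCNE2). The 4 libraries of one group lay entirely above those of the other for 36.1% of all tested genes, and for 5 of these 8. These genes were chosen with earlier results of the same data known, so the counts describe them and are no test of the family.

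**Figure D1:**
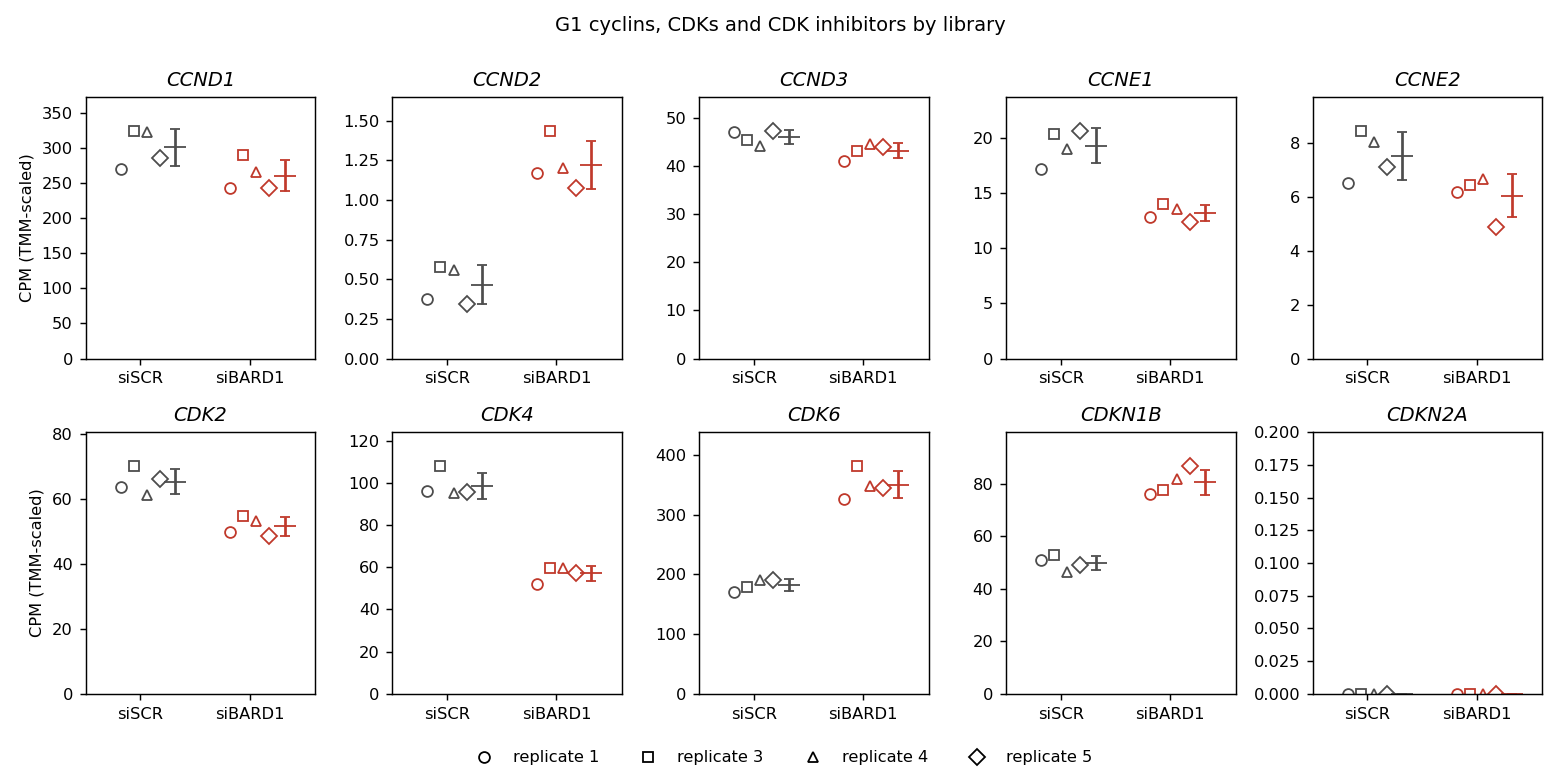
Each panel shows 1 gene, with CPM (TMM-scaled) on the y axis from 0 and the group on the x axis; open symbols are single libraries, shaped by replicate number, and the bar with whiskers is the mean ± SD (n = 4). The siSCR and siBARD1 libraries are apart for CDK4, CDK6, CDKN1B, CDK2, CCNE1 and CCND2, overlap for CCND1, CCND3 and CCNE2, and are all at 0 for CDKN2A.

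CCND1 encodes cyclin D1, the D cyclin most often amplified in carcinomas, and lies on chromosome 11 (69641087 to 69654474, plus strand, GRCh38). Its levels were 270.8, 324.8, 322.8 and 285.7 CPM in siSCR replicates 1, 3, 4 and 5. In siBARD1 replicates 1, 3, 4 and 5 they were 243.0, 289.5, 266.6 and 243.3 CPM. The highest siBARD1 library lay above 2 of the siSCR libraries, replicates 1 and 5. The log2 fold change was -0.21 (SE 0.07, adjusted p = 0.0271 in edgeR). The call was lost without siSCR replicate 3 (adjusted p = 0.0861), siSCR replicate 4 (0.0865), siBARD1 replicate 1 (0.0788) or siBARD1 replicate 5 (0.0834), and with scaling by total count (0.0664) or upper quartile (0.0647). The opposite-strand gene LTO1 shares 10.3% of the exonic bases of CCND1 and did not pass the test (log2 fold change -0.19, SE 0.10, adjusted p = 0.154 in edgeR).

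CCND3 encodes cyclin D3, which also partners CDK4 and CDK6, and lies on chromosome 6 (41934933 to 42050357, minus strand). It stood at 46.9, 45.5, 44.2 and 47.3 CPM in siSCR replicates 1, 3, 4 and 5. The siBARD1 libraries held 40.9, 43.1, 44.6 and 43.8 CPM in the same replicate order. Only siBARD1 replicate 4 reached into the control range. Its log2 fold change of -0.09 (SE 0.06) did not pass (adjusted p = 0.210 in edgeR). The approximate 95% interval of the siBARD1 to siSCR ratio ran from 0.871 to 1.01.

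CCND2 encodes cyclin D2 and lies on chromosome 12 (4273772 to 4305350, plus strand). It had 9, 10, 12 and 7 counts in siSCR replicates 1, 3, 4 and 5 against 24, 37, 35 and 24 in the siBARD1 libraries. Scaled for depth, it stood at 0.344 to 0.580 CPM in siSCR and 1.08 to 1.44 CPM in siBARD1, without overlap. The log2 fold change was 1.40 (SE 0.29, adjusted p = 9.23e-04 in edgeR), a ratio with an approximate 95% interval of 1.80 to 3.90. Because CCND2 passed the filter only through its siBARD1 libraries, these values are given as a description. On the log2(FPKM + 1) scale the change was only 0.14, because the gene stood at 0.065 ± 0.017 and 0.169 ± 0.021 FPKM (SD, n = 4 each). A same-strand gene that shares 13.8% of its exonic bases, AC008012.1, averaged 0.0145 CPM in siSCR and 0 in siBARD1.

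Per length, CCND1 was the largest part of the pool of D cyclin transcripts in both groups. CCND1 made up 88.6% ± 1.17 of the summed FPKM of CCND1, CCND2 and CCND3 in siSCR and 87.6% ± 0.82 in siBARD1 (SD, n = 4 each). CCND3 made up 11.3% ± 1.19 and 12.1% ± 0.83, and CCND2 0.0915% ± 0.018 and 0.277% ± 0.017. These shares rest on the authors' gene lengths of 4830 bases for CCND1 and 5802 for CCND3. The longest coding transcripts have 4307 and 2394 bases, on which the share of CCND3 would be larger. The ratio of CCND1 to CCND3 within a library, which does not depend on scaling between libraries, moved by -0.12 on the log2 scale, with overlapping groups (exact two-sided permutation p = 0.257, adjusted p = 0.257 over 3 ratios).

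CDK4 encodes a kinase partner of the D cyclins and lies on chromosome 12 (57747727 to 57756013, minus strand). Its levels were 96.3, 107.9, 95.0 and 95.7 CPM in siSCR replicates 1, 3, 4 and 5. They were 51.9, 59.6, 59.6 and 57.3 CPM in the matching siBARD1 libraries. Every siBARD1 library lay far below every control library, and siSCR replicate 3 stood above the other controls. The log2 fold change was -0.79 (SE 0.06, adjusted p = 3.08e-08 in edgeR). TSPAN31, on the opposite strand, shares 43.2% of the exonic bases of CDK4, and whether the counting used strand is not stated. TSPAN31 averaged 9.07 CPM in siSCR and 9.46 CPM in siBARD1 and did not pass (adjusted p = 0.779 in edgeR).

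CDK6, the second D-cyclin-dependent kinase, lies on chromosome 7 (92604921 to 92836594, minus strand). It stood at 169.9, 178.2, 189.9 and 191.4 CPM in siSCR replicates 1, 3, 4 and 5. In the siBARD1 libraries it reached 326.5, 381.1, 347.7 and 345.0 CPM. The lowest siBARD1 library was well above the highest control library. The log2 fold change was 0.94 (SE 0.06, adjusted p = 1.63e-09 in edgeR), and 2.58% of all tested genes were called with a larger change in either direction. Opposite-strand genes share 0.661% of its exonic bases.

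Because CDK4 and CDK6 do the same step with the D cyclins, their levels were compared per length. In siSCR CDK4 stood at 31.0 ± 1.99 FPKM and CDK6 at 14.8 ± 0.79 FPKM, and in siBARD1 CDK4 stood at 17.9 ± 1.17 and CDK6 at 28.3 ± 1.86 FPKM (SD, n = 4 each). CDK6 over CDK4 was 0.427 to 0.517 in the 4 siSCR libraries and 1.51 to 1.65 in the 4 siBARD1 libraries. The log2 ratio of CDK4 to CDK6 therefore moved by -1.73 between groups that did not overlap (exact two-sided permutation p = 0.0286, the smallest that 70 assignments allow). Adjusted over the 3 ratios tested this p is 0.0857, above the threshold, which a single ratio at the smallest p cannot pass after adjustment over 3. The sum of both kinases was 45.8 ± 1.87 FPKM in siSCR and 46.2 ± 2.87 FPKM in siBARD1 on the authors' lengths, a difference smaller than either SD. These levels rest on the authors' gene lengths of 3168 bases for CDK4 and 12260 for CDK6. With the longest coding transcripts, 2076 and 11612 bases, an alternative added after seeing the data, the CDK6 to CDK4 ratio was 0.331 ± 0.031 and 1.10 ± 0.046 and the sum was 62.9 ± 2.86 in siSCR and 57.2 ± 3.54 in siBARD1, a fall larger than either SD although single libraries overlapped. Whether the sum of both kinases changed thus depended on the length used. Neither length allows for the 43.2% of exonic bases that CDK4 shares with TSPAN31. If reads over those bases were not counted, CDK4 per length is understated in both groups. Which kinase led in siBARD1 is therefore uncertain, while the change of the ratio between groups does not depend on length.

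CDK4 had a further feature in its promoter. The palindrome CACGTG, the E-box bound by MYC with its partner MAX, occurred 3 times in the 300 bases from 250 before to 50 after the RefSeq start of CDK4 (chr12:57752261-57752560, minus strand, GRCh38.p14). The E-boxes are in capitals in the sequence, which is shown because CDK4 fell most among the 10 genes.
CDK4 promoter: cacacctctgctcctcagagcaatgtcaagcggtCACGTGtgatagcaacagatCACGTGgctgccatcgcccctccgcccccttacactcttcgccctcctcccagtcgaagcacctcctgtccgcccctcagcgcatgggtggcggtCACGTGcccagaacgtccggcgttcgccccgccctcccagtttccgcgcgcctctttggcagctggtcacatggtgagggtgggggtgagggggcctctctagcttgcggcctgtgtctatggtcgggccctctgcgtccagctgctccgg
CACGTG reads the same on both strands, and 7.26% of 35116 promoter windows of this length held it at least once, while 33 windows (0.0940%) held it 3 times or more. The windows found for CCND3, CDKN1B, CCNE1 and CDKN2A held none, and 1 of the 2 CDK6 windows held 1. MYC, named here after its values were seen, averaged 94.8 CPM in siSCR and 58.4 CPM in siBARD1 (log2 fold change -0.70, SE 0.05, adjusted p = 2.46e-08 in edgeR). None of the 10 windows of these 6 genes held an E2F word (TTTCCCGC, TTTCGCGC, TTTGCCGC or TTTGGCGC on either strand). Since only 3.31% of all windows held one, 10 windows would mostly hold none, and their absence here carries no information. No window was found for CCND1, CCND2, CCNE2 or CDK2. A match in a window is a description of its letters, and occupancy by either factor was not measured.

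CCNE1 encodes cyclin E1, the main activator of CDK2 at the end of G1, and lies on chromosome 19 (29811898 to 29824308, plus strand). It stood at 17.2, 20.4, 19.0 and 20.7 CPM in siSCR replicates 1, 3, 4 and 5. The siBARD1 libraries held 12.8, 14.0, 13.6 and 12.4 CPM. All siBARD1 libraries were lower than all controls. In log2 terms the change was -0.54 (SE 0.08, adjusted p = 8.04e-05 in edgeR).

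CCNE2 encodes cyclin E2, which partners the same kinase, and lies on chromosome 8 (94879770 to 94896678, minus strand). It stood at 6.52, 8.47, 8.05 and 7.12 CPM in siSCR replicates 1, 3, 4 and 5. The siBARD1 libraries held 6.20, 6.44, 6.67 and 4.90 CPM. The overlap rested on siSCR replicate 1, which lay below siBARD1 replicate 4. The log2 fold change of -0.31 (SE 0.13) did not pass (adjusted p = 0.0734 in edgeR), with an approximate 95% interval for the ratio of 0.676 to 0.965 before adjustment; without siSCR replicate 1 it was -0.37 (adjusted p = 0.0309). INTS8, on the opposite strand, shares 37.0% of the exonic bases of CCNE2 and was far more abundant, averaging 85.4 (siSCR) and 92.3 (siBARD1) CPM. Without strand, reads of INTS8 and CCNE2 over the shared bases cannot be told apart, so the CCNE2 values are uncertain. INTS8 did not pass (log2 fold change 0.11, SE 0.05, adjusted p = 0.0811 in edgeR). The CCNE1 to CCNE2 log2 ratio moved by -0.23 with overlapping groups (exact permutation p = 0.0857, adjusted p = 0.129), so that unequal changes of the cyclin E genes were not resolved.

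CDK2, the kinase partner of cyclin E, lies on chromosome 12 (55966769 to 55972784, plus strand). It stood at 63.6, 70.1, 61.2 and 66.2 CPM in siSCR replicates 1, 3, 4 and 5. In siBARD1 it stood at 49.7, 54.7, 53.2 and 48.7 CPM. The groups did not overlap, although the gap was narrow compared with that of CDK4. In log2 terms the change was -0.34 (SE 0.06, adjusted p = 2.55e-04 in edgeR). The opposite-strand genes AC025162.1 and PMEL share 14.5% and 2.29% of the exonic bases of CDK2. If reads over those bases were not counted, CDK2 per length is understated in both groups.

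CDKN1B encodes p27, which binds and inhibits cyclin E-CDK2, and lies on chromosome 12 (12715058 to 12722371, plus strand). Its levels were 51.0, 52.9, 46.3 and 49.0 CPM in siSCR replicates 1, 3, 4 and 5. They were 76.2, 77.5, 81.8 and 86.6 CPM in siBARD1. All siBARD1 libraries stood above all controls. In log2 terms the change was 0.69 (SE 0.06, adjusted p = 1.21e-07 in edgeR). Per length, CDKN1B and CDK2 were level in siSCR, at 17.6 ± 1.04 and 16.7 ± 0.99 FPKM, whereas in siBARD1 they stood at 28.4 ± 1.65 and 13.1 ± 0.75 FPKM (SD, n = 4 each). CDKN1B over CDK2 was 1.06 ± 0.036 in siSCR and 2.17 ± 0.21 in siBARD1. With the longest coding transcripts as lengths it was 0.659 ± 0.022 and 1.35 ± 0.13, so the ratio was higher in siBARD1 on either length, and which gene led in siSCR depended on the length used.

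**Figure D2:**
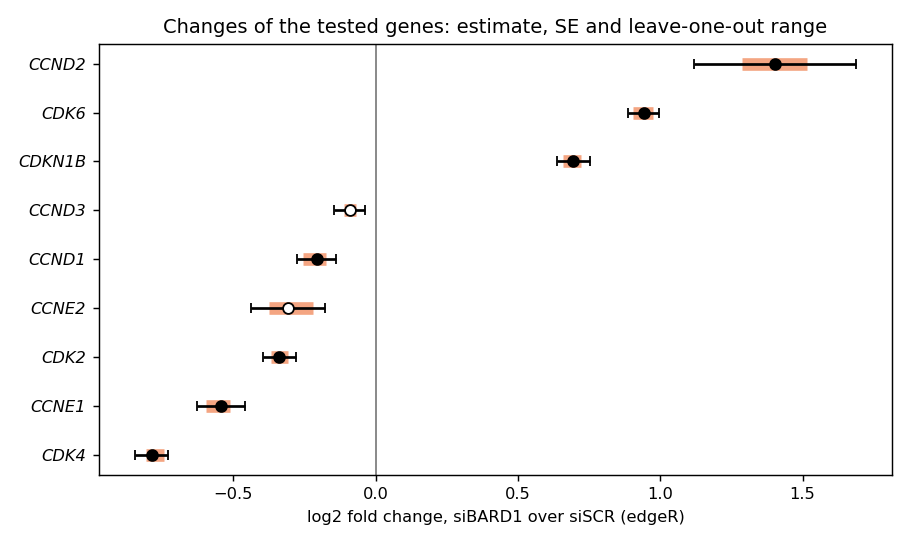
Log2 fold change of the 9 tested genes, siBARD1 over siSCR, on the x axis; points are edgeR estimates (filled, adjusted p under 0.05; open, not past it), whiskers are 1 SE and the shaded bar is the range when each of the 8 libraries was left out in turn. CDK4 and CDK6 lie at -0.79 and 0.94 with narrow ranges, and CCND2 has the widest error.

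CDKN2A, which encodes p16 and the p53-pathway protein ARF, lies on chromosome 9 (21967753 to 21995301, minus strand). It had 0 counts in all 8 libraries, against a total of 180480536 counts, which allows up to 0.0166 CPM over all libraries together (3 counts, covering counting error only). The genes around it were read from the same table. 12 neighbouring annotated genes in order of their starts, from chromosome 9 position 21858910 to 22214672, had 0 counts in every library, CDKN2B, CDKN2A-DT and CDKN2B-AS1 among them. CDKN2B encodes p15, the other INK4 inhibitor of this locus. MTAP, a methionine salvage enzyme that begins at 21802543, had 0 to 7 counts per library. Beyond it the pseudogene KHSRPP1 had 87 to 223 counts per library, MIR31HG 41 to 85 and, further out, KLHL9 344 to 739. On the other side DMRTA1 had 40 to 77. Most interferon genes nearer to KLHL9 were also at 0, and the cause of the zero counts was not tested for either set of genes. Zero counts of CDKN2A were seen in siSCR and siBARD1 alike, and no fold change can be given for CDKN2A.

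**Figure D3:**
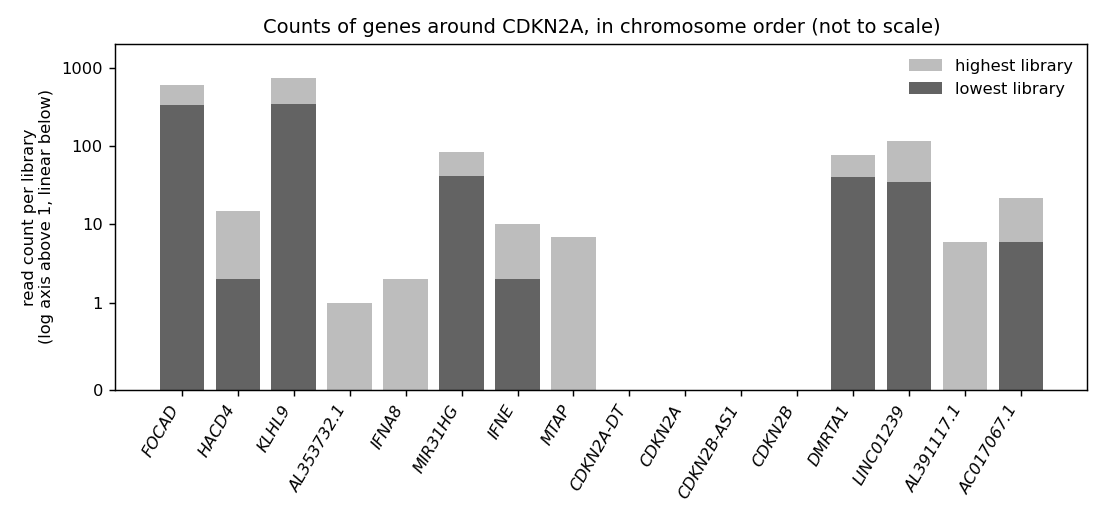
Genes within 1000000 bases of CDKN2A, in chromosome order and not to scale; pseudogenes, small RNAs and other genes without counts are left out, apart from CDKN2A, CDKN2B, CDKN2B-AS1 and CDKN2A-DT. Bars give the highest (light) and lowest (dark) count of the 8 libraries on an axis that is logarithmic above 1 count; CDKN2A and its nearest neighbours are at 0 between MTAP, at 0 to 7, and DMRTA1, at 40 to 77.

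The order of levels per length put CCND1 first in both groups, at 62.0 ± 5.60 FPKM in siSCR and 53.5 ± 4.65 FPKM in siBARD1 (SD, n = 4 each). In siSCR it was followed by CDK4, CDKN1B, CDK2, CDK6, CCND3, CCNE1, CCNE2 and CCND2, where CDKN1B overlapped CDK2 and CCND3 overlapped CCNE1. In siBARD1 it was followed by CDKN1B, CDK6, CDK4, CDK2, CCND3, CCNE1, CCNE2 and CCND2, where only CDKN1B and CDK6 overlapped. Both orders rest on the authors' gene lengths and may differ on other lengths. The longest coding transcript is 2394 against 5802 bases for CCND3, but 11612 against 12260 for CDK6. Among tested protein-coding genes CDK6 went from the 74.0 to the 87.8 percentile of FPKM and CDK4 from the 88.3 to the 79.4 percentile. CCND1 stayed near the top, at the 95.2 and 94.5 percentile, and CCND2 near the bottom, at 0.776 and 3.74.

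The wider G1 machinery was read from 7 lists of genes, which were drawn up by function and are set beside a median log2 fold change of 0.00 over all tested genes, of which 20.0% were called lower and 18.9% higher. The counts describe each list and were not tested against those shares. Of the other CDK inhibitors, 3 of 5 tested fell and 1 rose, with a median of -0.23. CDKN1A, which encodes p21, fell from 67.3 ± 6.79 to 42.9 ± 2.40 CPM (log2 fold change -0.65, SE 0.07, adjusted p = 1.87e-06 in edgeR), opposite in direction to its relative CDKN1B. CDKN3, a phosphatase that acts on CDK2, fell by 0.74 on the log2 scale (SE 0.08). CDKN1C, which encodes p57, had a log2 fold change of 0.92 (SE 0.24, adjusted p = 0.00858), with overlapping libraries at 4.09 ± 1.02 and 7.84 ± 2.44 CPM. CDKN2B was not tested, having no counts.

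Among 13 RB pocket protein and E2F genes, 6 fell, 3 rose and 4 did not pass, with a median of -0.09, beside 20.0% lower and 18.9% higher over all genes. E2F2 and E2F8, an activator and a repressor of the family, both had log2 fold changes of -0.70 (SE 0.11 each). RBL2, which encodes the pocket protein p130 of resting cells, rose by 0.33 (SE 0.05), and the repressor E2F7 by 0.31 (SE 0.10) with overlapping libraries. Without siSCR replicate 3 only 1 gene of this list was called higher.

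Of 13 genes of the ubiquitin ligases that turn over G1 cyclins and p27, 4 were called higher, 2 lower and 7 did not pass (median 0.05), a called share near the 38.9% of all tested genes. FBXW7, the F-box protein that recognises phosphorylated cyclin E, rose from 14.7 ± 0.095 to 24.7 ± 2.59 CPM (log2 fold change 0.75, SE 0.08, adjusted p = 2.03e-06 in edgeR). SKP2, the F-box protein that targets p27, rose from 33.0 ± 1.12 to 47.7 ± 2.69 CPM (0.53, SE 0.06), while its cofactor CKS1B fell by 0.31 (SE 0.06). FBXO4 fell from 7.15 ± 0.69 to 4.10 ± 0.069 CPM (-0.80, SE 0.12). SKP2 and CDKN1B transcripts were thus both higher in siBARD1, and p27 protein was not measured.

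Of 9 genes that activate or restrain CDKs by phosphorylation or as chaperones, 4 fell and 2 rose (median -0.12), beside 20.0% and 18.9% of all tested genes. PKMYT1, an inhibitory kinase of CDK1, fell by 0.59 (SE 0.10), and CDK7, the catalytic subunit of the CDK-activating kinase, by 0.33 (SE 0.06). The CDK-activating phosphatases CDC25B (0.40, SE 0.06) and CDC25A (0.36, SE 0.13, adjusted p = 0.0404 in edgeR) rose. CDC25A had overlapping libraries, and 1 rather than 2 genes of the list rose without siSCR replicates 1, 3 or 5 or siBARD1 replicates 3 or 4 and with limma on FPKM.

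Of 18 tested genes listed as cyclins outside the G1 set, 11 were called higher, 1 lower and 6 were not called (median 0.23). Over all tested genes 18.9% were called higher and 20.0% lower. CCNDBP1, among the 11, encodes a protein that binds cyclin D and is not itself a cyclin. CCNL2, a cyclin of RNA splicing, had 0.55 (SE 0.13) and CCNJ 0.43 (SE 0.06), and the mitotic cyclin CCNB1 had -0.34 (SE 0.05). Without siSCR replicate 3, 7 were called higher. Of 17 other CDKs, 4 rose and 3 fell (median 0.06), shares near those of all tested genes. The named ones were the mediator kinase CDK8 (0.49, SE 0.07) and its paralogue CDK19 (0.36, SE 0.06), and in the other direction CDK15 (-0.85, SE 0.09) and CDK16 (-0.45, SE 0.05). Of 16 regulators upstream of the D cyclins, 5 fell and 3 rose (median -0.02), beside 20.0% lower and 18.9% higher over all tested genes. The growth factor receptor EGFR fell from 411.1 ± 22.8 to 203.2 ± 21.2 CPM (-1.02, SE 0.07), and the AP-1 component FOSL1 moved by -0.75 (SE 0.12). GSK3B, a kinase that phosphorylates cyclin D1 for degradation, rose by 0.34 (SE 0.05), and YAP1 by 0.30 (SE 0.05).

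**Figure D4:**
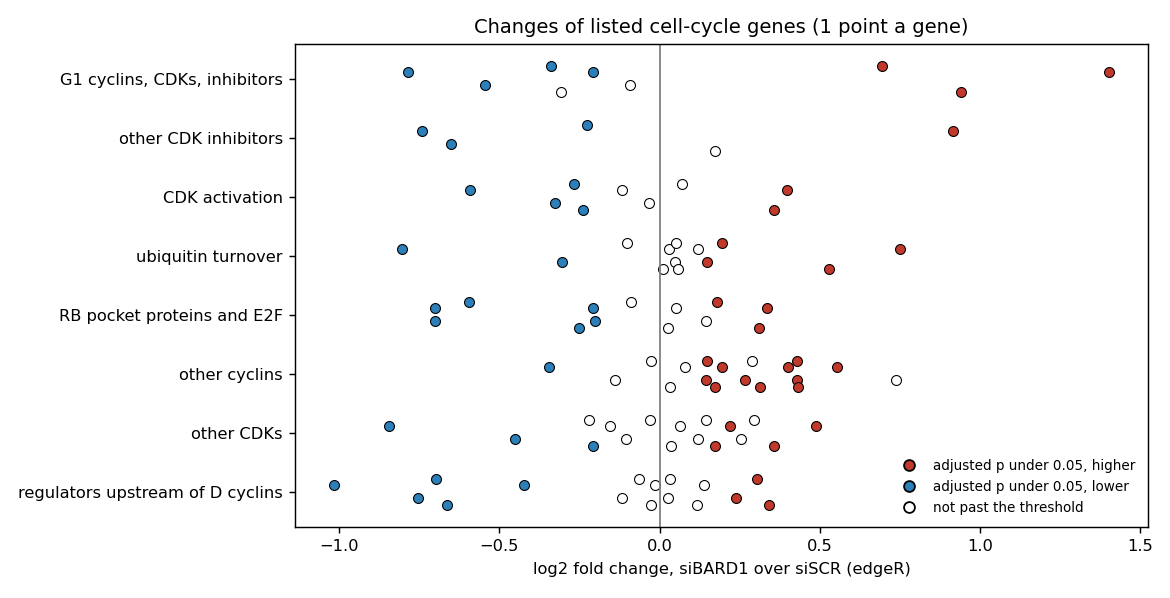
Log2 fold change, siBARD1 over siSCR, on the x axis for each tested gene of the G1 set (top row) and of 7 further lists (rows); points are genes, red or blue where called higher or lower at an edgeR adjusted p under 0.05 and white where not, with vertical offsets only for visibility. CCND2 (1.40) is the rightmost point and EGFR (-1.02) the leftmost, and genes of the list of other cyclins lie mostly to the right of 0.

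The genes whose pattern over the 8 libraries was most like that of CDK4, by Pearson's r of log2 CPM over 10425 protein-coding genes averaging at least 5 CPM, were TOMM40 (r = 0.998), PSMB6 (0.997) and RUVBL2 (0.997). They encode a mitochondrial import channel, a proteasome subunit and a chromatin-remodelling ATPase, and had log2 fold changes of -0.53, -0.65 and -0.74. For CCND2 the likest were C3orf38, PPTC7 and INIP (r = 0.985, 0.984 and 0.984), with log2 fold changes of 0.28, 0.21 and 0.22, far below the 1.40 of CCND2. CCND2 had only 7 to 37 counts per library and passed the filter only through its siBARD1 libraries, so its likeness is a description. For CDK6, added after its values were seen, they were TNRC6A (r = 0.996), PITPNA (0.996) and MAPK12 (0.994), of which PITPNA and MAPK12 had log2 fold changes of 0.23 and 0.32 beside 0.94 for CDK6, and TNRC6A went from a mean of 135.0 CPM to 300.2 CPM. All 8 points share the 2 groups, so these values mostly restate a common difference between siSCR and siBARD1.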

How the data were processed

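Polyadenylated RNA of 8 PANC-1 libraries was measured, and libraries were grouped by their titles. Raw gene counts were deposited for every library, and so were FPKM values (counts scaled by gene length and library total). The tools fastp, HISAT2 (2.0.5) and featureCounts are named in the submitters' processing notes; settings are not stated. The labels' protocols name both a directional and a non-directional preparation and do not say which one applies; strand use in counting is not given. The same notes give GRCh37 and hg19, whereas 58724 of 58735 genes in the deposited tables have the starts and ends of GENCODE 29 on GRCh38, so GRCh38 coordinates are given and the alignment build is not settled. How reads over overlapping genes were assigned is not given either.

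Deposited counts were tested in R (4.3.3) by edgeR (4.0.16), with filterByExpr (minimum here 0.459 CPM in 4 libraries), TMM scaling, a robust quasi-likelihood fit without covariates and Benjamini-Hochberg adjustment over 15287 genes. Standard errors are the log2 fold change over the square root of F, approximate 95% intervals are 1.96 SE either side, and CPM uses TMM-scaled totals. For ratios of FPKM within a library, all 70 assignments of libraries to groups gave an exact two-sided permutation p. No 2 libraries of a group were duplicates: chi-square per gene and degree of freedom was 4.26 to 17.7. Pairs with replicate 1 had the highest values of each group, 14 to 17.7 in siSCR and 8.57 to 9.27 in siBARD1. The edgeR step was tested on simulated data. The alternatives tried were scaling by RLE, upper quartile or total count, no filter or 1 CPM in 4 libraries, DESeq2 (1.42.0), limma-voom and limma (3.58.1) after adding 1 or 0.1 to FPKM before log2, a replicate block, and each library left out in turn. The 10 genes, the lists and the tests were chosen with earlier results of these data known. Named genes are the 10, BARD1, and in each list the 2 largest called changes each way; likeness was ranked for the largest called rise and fall. Promoters are RefSeq windows on GRCh38.p14, found for 6 of the 10 genes.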

Additional observations from a re-analysis of the deposited data

Results flagged for a closer look

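Among 24 groups of 4 values checked (9 genes and 3 ratios, each in siSCR and siBARD1), 1 held a library far from the other 3, where chance alone gives about 1 in 20. CDK4 in siSCR replicate 3 stood at 107.9 CPM, against 95.0 to 96.3 CPM in the other siSCR libraries. Without that library the log2 fold change of CDK4 was -0.75 (adjusted p = 1.91e-07 in edgeR), and over the 18 alternatives the adjusted p of CDK4 ranged from 2.77e-35 to 1.08e-05.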

How the results depend on the processing

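CDK4, CDK6, CDKN1B, CDK2 and CCNE1 kept their direction and their call, and CCND3 stayed uncalled, under all 18 alternatives. CCND2 was also called in each. Where low counts were filtered it entered the test only through the group where it is high, which is no sign of stability. The fit without a filter and DESeq2 took in every gene with a count. There CCND2 had adjusted p = 3.97e-04 in edgeR and 0.00106 in DESeq2, still on few counts. Log2 fold changes of CDK4 ranged from -0.81 to -0.74 and of CDK6 from 0.89 to 0.99. CCND1 lost its call under 8 of 18 alternatives, the 6 given beside it and limma on log2(FPKM + 1) (adjusted p = 0.0541) and log2(FPKM + 0.1) (0.0521), and CCNE2 gained one under 2, without siSCR replicate 1 and with the replicate block (0.0406). Members called lower numbered 3 to 5 when single libraries were left out and members called higher 3 (CCND2 and the 2 well above the filter); over all genes 2663 to 3195 were lower and 2428 to 3149 higher. Under the replicate block 5 members were lower and 3 higher, and 3379 and 3225 of all genes. Deviations of same-numbered libraries correlated at 0.139, 0.129, 0.0335 and -0.0323, and 2 of 4 siSCR libraries correlated best with their own number, so the numbers were not treated as pairs. Regulators upstream of D cyclins called higher went from 3 to 5 under the block. Of all calls 48.6% were higher with TMM and 59.3% with total-count scaling, the median gene shifting by at most 0.05. The CDK4 to CDK6 log2 ratio ranged from -1.77 to -1.68 when single libraries were left out, each with an exact permutation p of 0.0571, the smallest that 3 against 4 libraries allow. With 7 to 37 counts per library, CCND2 has the widest error.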
